A study of Mus musculus with 24 samples.

Results

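The WT vehicle group held 3 RNA-seq libraries of unedited MOVAS cells, a line of mouse aortic smooth muscle cells, that had received vehicle. Its 3 libraries, of 24 in the series, were compared with the 9 libraries of the other vehicle groups over all genes of the deposited table, each of those 3 groups weighted equally. The other vehicle groups were ADAM9i (unedited WT cells given an ADAM9 inhibitor together with vehicle), Rosa26-KO (cells edited at the Rosa26 locus, a site often edited as a control for editing itself) and Adam9-KO (cells edited at Adam9, which encodes a membrane-anchored metalloprotease). The remaining 12 libraries were the same 4 kinds of cells, inhibitor included, given rhCTHRC1, a recombinant human secreted protein. They served here only to place the WT vehicle libraries in the series. The comparison asks in which genes the wild-type cells given vehicle alone differed from the 3 groups they stand beside, which differ from them by inhibitor or by editing.

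All groups were of the same cell line and were sequenced as stranded total RNA in 150-base paired ends. The labels give no name or dose for the inhibitor, no time, no culture density, no statement on clones of the edited cells, and no statement that replicates were separate cultures, so p-values measure the spread between these libraries, which may be technical. Library titles of unedited cells without inhibitor follow another pattern than the titles of the other groups. A difference in handling cannot be told apart from a difference of inhibitor or editing.

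The deposited table held raw counts for 33034 genes. Counts in genes totalled 62522019, 63541866 and 54326353 in the WT vehicle libraries and lay between 54906867 and 63490507 in the 9 others. A level is given as CPM, counts scaled to a common library total with TMM factors, and a difference as WT vehicle minus the mean of the other 3 vehicle groups on the log2 scale with its standard error. A gene was called when its adjusted p, from edgeR's quasi-likelihood F test with Benjamini-Hochberg adjustment over the 18529 genes tested, was below 0.05. In sentences on a gene, the values of the 3 WT vehicle libraries come before the lowest and highest value, with the median, of the 9 others. Where a library had 0 counts, the limit was 3 counts, which is 0.0472 to 0.0552 CPM by library and covers counting error only.

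The difference reached most of the transcriptome. In all, 11611 genes were called (62.7% of those tested), 5585 of them higher (30.1%) and 6026 lower (32.5%) in WT vehicle. All 3 WT vehicle libraries lay above all 9 others in 4443 genes (24%) and below all 9 in 4621 genes (24.9%). Set against all 21 other libraries of the series, rhCTHRC1 included, they lay above in 3504 genes (18.9%) and below in 3300 (17.8%). The median difference of all genes tested was -0.04, and 3460 genes were called with at least a 2-fold difference, 1470 higher and 1990 lower. Among the 3 other groups themselves 5846 genes were called (31.6%), so the cells that WT vehicle was compared with were not alike either. The median absolute difference was 0.50 for WT vehicle, against 0.30 for the largest difference between any pair of the other groups. Along principal component 1 (44.2% of the variance) a wide gap separated the WT vehicle libraries from the rest.

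Against each group alone, sharing the same WT vehicle libraries, the calls were 5040 higher (27.2%) and 5695 lower (30.7%) relative to ADAM9i, 5049 higher (27.2%) and 5447 lower (29.4%) relative to Rosa26-KO, and 5257 higher (28.4%) and 5811 lower (31.4%) relative to Adam9-KO. Adam9 itself had 249.6, 206 and 275 CPM in WT vehicle, against 157, 159 and 168 CPM in ADAM9i, 225, 233 and 238 CPM in Rosa26-KO and 128, 133 and 147 CPM in Adam9-KO. Adam9 was higher in WT vehicle than in the mean of the others by 0.50 ± 0.07 (adjusted p = 0.000163), with overlapping libraries. The difference was 0.59 from ADAM9i, 0.07 from Rosa26-KO and 0.84 from Adam9-KO. Adam9-KO cells kept Adam9 RNA, and the edited part of the gene is not given in the sources used here. Cthrc1, the mouse gene of the protein added in the treated groups, had 0 counts in the WT vehicle libraries and 3 counts in 1 Adam9-KO vehicle library.

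WT vehicle cells had been described as stressed and less proliferative from these same counts, so the counts that follow are no independent support for that wording. Targets of ATF4 and CHOP were higher (27 of 28) and mitotic genes lower (35 of 38). Heat shock genes were more often lower (11 of 18), chaperones of the endoplasmic reticulum divided, and genes of ribosome biogenesis were higher (28 of 30). In the list of CDK inhibitors, D cyclins and pocket proteins 8 of 19 genes were higher and 11 lower. Among all genes tested 30.1% were called higher and 32.5% lower. The number of cells was not analysed here.

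Several programmes known in cultured smooth muscle cells were examined as lists of genes. Every count of called members is to be read beside the shares among all genes tested, 30.1% higher and 32.5% lower. These shares were 36.0% and 36.9% among genes whose first listed transcript type was protein-coding, so a list near either pair of shares is not set apart by its count. ATF4 and CHOP (Ddit3) are transcription factors of the integrated stress response, in which phosphorylation of eIF2 slows translation while a set of genes for amino acid supply, redox balance and cell death is switched on. The unfolded protein response of the endoplasmic reticulum, run by ATF6, IRE1 with XBP1, and PERK, raises chaperones of that compartment. SREBP2 drives the enzymes of cholesterol synthesis when sterols in the endoplasmic reticulum are low. Cultured smooth muscle cells move between a contractile state, with actins, myosins and calponin, and a dividing, matrix-making state.

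Promoters of leading genes of these programmes are shown first, with the letters searched in capitals. Windows run from 250 bases before to 50 bases after the gene start in RefSeq (GRCm38.p6), on the strand of the gene, 5′ to 3′. Promoters were counted by gene, and a gene with several windows counted once when any of them matched. The letters TGATGNAA, the core of composite CEBP and ATF sites, were found on either strand in 8 of 23 promoters of ATF4 and CHOP targets (34.8%), in 5 of 13 of cytosolic tRNA synthetases (38.5%), and in 1219 of 27025 of all promoters (4.51%). Chac1 (chr2:119350992-119351291, plus strand), which encodes a glutathione-degrading enzyme, and Fgf21 (chr7:45615441-45615740, minus strand), which encodes a secreted hormone, were among the 5 genes of the ATF4 and CHOP list with the largest differences, and the capitals mark TGATGNAA or its reverse complement.
Chac1: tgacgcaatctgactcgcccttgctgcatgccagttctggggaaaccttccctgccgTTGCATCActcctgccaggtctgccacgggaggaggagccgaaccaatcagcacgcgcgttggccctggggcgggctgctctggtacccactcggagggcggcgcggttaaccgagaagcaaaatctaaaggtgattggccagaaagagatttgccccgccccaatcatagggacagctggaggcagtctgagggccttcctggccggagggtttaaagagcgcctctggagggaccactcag
Fgf21: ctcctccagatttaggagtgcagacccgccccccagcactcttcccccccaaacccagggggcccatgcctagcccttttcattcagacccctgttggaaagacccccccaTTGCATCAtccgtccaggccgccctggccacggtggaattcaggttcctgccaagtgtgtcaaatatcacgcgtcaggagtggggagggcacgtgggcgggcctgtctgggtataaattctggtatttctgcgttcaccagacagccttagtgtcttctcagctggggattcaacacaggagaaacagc
The ERSE, CCAAT and CCACG with 9 bases between, is the classic element of endoplasmic reticulum chaperones. It was found in 9 of 25 promoters of the chaperone list (36.0%), against 37 of 27025 of all promoters (0.137%). Hspa5 (chr2:34771840-34772139, plus strand), the main chaperone of that compartment, and Pdia6 (chr12:17266339-17266638, plus strand), a disulfide isomerase, both hold it, and they are shown because the level of Hspa5 was 3.09-fold higher in WT vehicle while Pdia6 did not pass the test (adjusted p = 0.892). Capitals mark the ERSE and, in Hspa5, also TGACGTG, letters known to be bound by XBP1 and ATF6.
Hspa5: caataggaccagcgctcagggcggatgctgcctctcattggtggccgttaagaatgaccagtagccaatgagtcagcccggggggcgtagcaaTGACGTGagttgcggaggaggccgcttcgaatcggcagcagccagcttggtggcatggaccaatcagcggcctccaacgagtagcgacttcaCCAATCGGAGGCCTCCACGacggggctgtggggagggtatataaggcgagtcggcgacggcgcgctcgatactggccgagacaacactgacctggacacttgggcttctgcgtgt
Pdia6: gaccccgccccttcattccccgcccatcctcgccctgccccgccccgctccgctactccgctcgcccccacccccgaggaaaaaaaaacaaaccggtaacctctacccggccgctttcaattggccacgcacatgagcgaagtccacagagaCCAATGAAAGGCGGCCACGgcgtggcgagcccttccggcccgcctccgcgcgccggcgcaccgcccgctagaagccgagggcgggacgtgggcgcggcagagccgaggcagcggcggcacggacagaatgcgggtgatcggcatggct
For the genes that were lower, Hmgcs1 (chr13:119690101-119690400, plus strand), the enzyme that makes HMG-CoA, is shown with the sterol letters TCACNCCAC in capitals. TCACNCCAC was in 1 of 18 promoters of the cholesterol list, against 1.44% of all, and CCAAT was in 17 of 18 (94.4%), against 41.1% of all promoters.
Hmgcs1: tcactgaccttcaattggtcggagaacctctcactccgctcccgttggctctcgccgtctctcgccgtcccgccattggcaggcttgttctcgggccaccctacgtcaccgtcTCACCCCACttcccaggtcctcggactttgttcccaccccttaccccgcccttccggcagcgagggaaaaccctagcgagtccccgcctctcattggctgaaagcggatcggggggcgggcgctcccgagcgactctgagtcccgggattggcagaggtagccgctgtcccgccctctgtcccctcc
Mki67 (chr7:135716330-135716629, minus strand), the gene of the Ki-67 protein of dividing cells, and Ccnb2 (chr9:70421505-70421804, minus strand), a mitotic cyclin, are shown with CCAAT and with TTTGAA, the cell cycle homology region, in capitals. TTTGAA was in 22 of 31 promoters of the mitosis list (71.0%), against 20.2% of all promoters. The E2F letters TTTNGCGC were in 12 of 35 promoters of the DNA replication list (34.3%), against 1.57% of all.
Mki67: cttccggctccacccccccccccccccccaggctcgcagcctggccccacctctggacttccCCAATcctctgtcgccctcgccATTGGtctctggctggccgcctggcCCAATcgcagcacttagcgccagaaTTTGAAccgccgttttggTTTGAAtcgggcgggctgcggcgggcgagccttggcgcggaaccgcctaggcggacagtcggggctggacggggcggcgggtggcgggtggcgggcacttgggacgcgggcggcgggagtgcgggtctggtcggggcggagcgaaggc
Ccnb2: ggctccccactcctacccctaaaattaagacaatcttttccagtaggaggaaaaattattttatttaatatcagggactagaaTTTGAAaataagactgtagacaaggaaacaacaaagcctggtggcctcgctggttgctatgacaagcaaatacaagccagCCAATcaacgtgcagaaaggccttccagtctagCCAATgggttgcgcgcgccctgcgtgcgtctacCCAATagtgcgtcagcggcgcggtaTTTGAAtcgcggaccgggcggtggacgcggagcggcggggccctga
These matches describe letters in a window and not bound sites. Lists named for a regulator hold its known targets, so a share of its letters above that of all genes is no result of these data.

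Targets of ATF4 and CHOP were higher almost throughout. Of 28 tested, 27 were called higher, with a median difference of 2.0, and in the same 27 the WT vehicle libraries lay above all 21 other libraries of the series. Among all genes tested 30.1% were called higher, and in 18.9% the WT vehicle libraries lay above all 21. Summed over the list, the level was 7893 to 8095 CPM in WT vehicle, against 2160 to 2711 CPM in the others. In bulk libraries such as these, more cells in a state and more RNA per cell cannot be told apart.

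Fgf21, a stress hormone, had 48.5, 50.1 and 44.6 CPM in WT vehicle, against 0.129 to 1.46 CPM (median 0.788) in the other vehicle libraries. The difference was 6.06 ± 0.18 (adjusted p = 2.94e-12), a 66.8-fold higher level. Atf3, a transcription factor that follows ATF4, had 249.8, 266 and 245 CPM, against 9.61 to 21.7 CPM (median 16.8), a difference of 3.97 ± 0.09 (adjusted p = 2.03e-11). For both, the lowest WT vehicle library was far above the highest of the other 9. Chac1 reached 419.5, 410.5 and 405 CPM, against 26.1 to 66.3 CPM (median 47.3), and Ppp1r15a, which encodes the GADD34 subunit that reverses eIF2 phosphorylation, reached 393, 403 and 374 CPM, against 38.5 to 52.7 CPM (median 42.2). The differences were 3.18 ± 0.05 and 3.17 ± 0.03 (adjusted p = 6.06e-16 and 4.3e-22). Gdf15, a secreted stress cytokine, was higher by 3.25 ± 0.06 and Nupr1, a small chromatin protein of stressed cells, by 3.14 ± 0.04.

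The transcription factors that name the list differed in size. Atf4 RNA was 820.3, 836 and 731 CPM, against 424 to 502 CPM (median 460.1), a difference of 0.80 ± 0.03 (adjusted p = 9.41e-15). Ddit3, the CHOP gene, was 198, 191 and 191 CPM, against 31.8 to 52.2 CPM (median 45.4), a difference of 2.21 ± 0.04 (adjusted p = 4.69e-20). Trib3, a pseudokinase that restrains ATF4, was higher by 2.04 ± 0.05, Cebpg, a partner of ATF4, by 1.79 ± 0.04, and Cebpb by 0.90 ± 0.03. Slc7a11, the cystine transporter, was higher by 2.29 ± 0.04, and Cth, which makes cysteine, by 2.77 ± 0.05. The gene that did not pass was Bbc3, a BH3-only killer protein, with 21.2, 20.9 and 19.97 CPM, against 14.9 to 21.9 CPM (median 19.2) (adjusted p = 0.122).

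**Figure D1:**
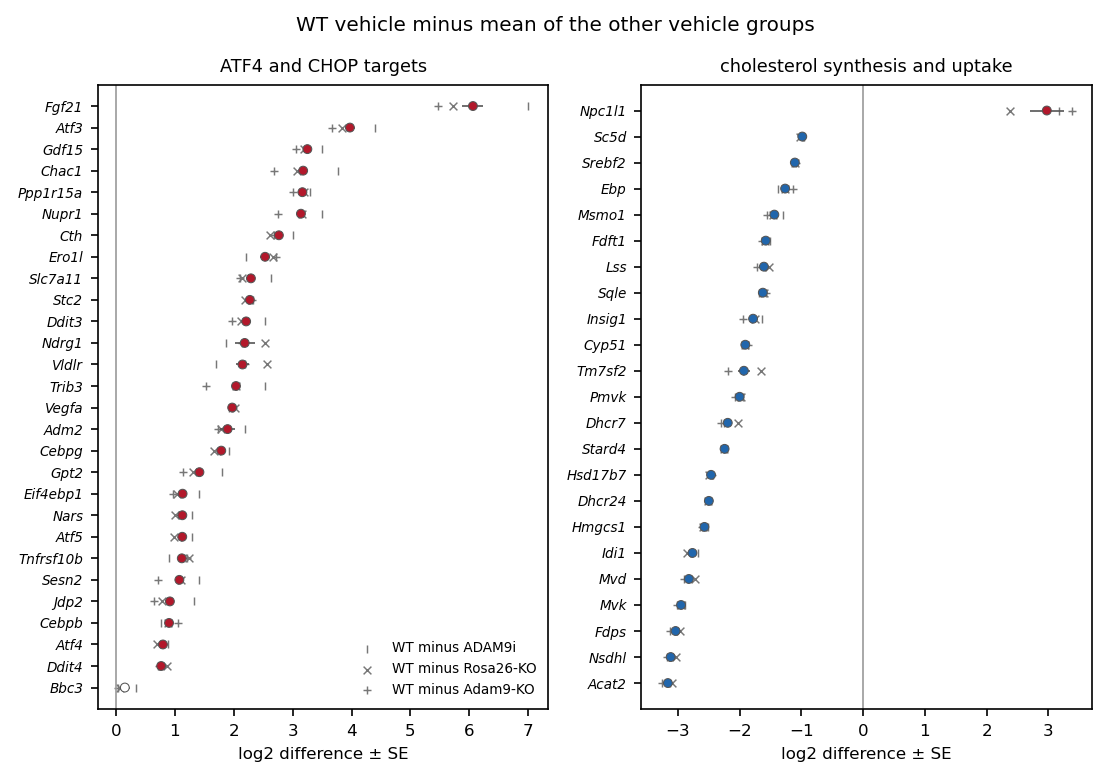
Log2 difference of genes of the ATF4 and CHOP list (left) and of the cholesterol list (right), WT vehicle minus the mean of the other vehicle groups, with bars of 1 standard error. Red points were called higher, blue lower, white not called, and small grey marks give the difference from each other group alone. In the left panel all points but Bbc3 are called higher, and in the right panel all genes drawn but Npc1l1 are called lower.

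Genes of amino acid supply rose with them. Of 14 amino acid transporters tested 10 were called higher and 1 lower (median 1.41), of 14 enzymes of serine, glycine and folate metabolism 12 higher and 2 lower (median 1.14), and of 20 cytosolic tRNA synthetases 17 higher and 2 lower (median 0.63). Slc7a5 and Slc3a2 encode the chains of the LAT1 exchanger for large neutral amino acids. Slc7a5 had 1404, 1458 and 1466 CPM, against 308 to 517 CPM (median 442), and Slc3a2 had 1144, 1121 and 1107 CPM, against 269 to 343 CPM (median 321). Their differences, 1.82 ± 0.04 and 1.87 ± 0.02, were close to each other, and neither gene's libraries overlapped (adjusted p = 1.2e-15 and 2.54e-21). Slc7a3 and Slc7a1, carriers of cationic amino acids, were higher by 2.15 ± 0.09 and 1.91 ± 0.03, and the glycine carrier Slc6a9 by 1.99 ± 0.04. Slc38a4 went the other way, with 0.131, 0.387 and 0 CPM, against 1.66 to 3.29 CPM (median 2.13) (adjusted p = 3.18e-05).

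In the serine branch, Phgdh, the entry enzyme, had 1001, 1048 and 1029 CPM, against 439 to 490.0 CPM (median 469.5), and Psph, the last enzyme, had 332, 346 and 331 CPM, against 86.3 to 113 CPM (median 102). The differences were 1.12 ± 0.02 and 1.75 ± 0.03 (adjusted p = 1.64e-19 and 1.3e-20). Of the mitochondrial folate enzymes, Mthfd2 was higher by 1.45 ± 0.04 and Aldh1l2 by 1.62 ± 0.03. Asns, which makes asparagine, was higher by 1.17 ± 0.02. The cytosolic folate enzyme Mthfd1 was lower by a small measure (-0.11 ± 0.03), with overlapping libraries, and Gldc of the glycine cleavage system had 0.722, 0.726 and 0.545 CPM, against 0.548 to 1.8 CPM (median 1.22).

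The tRNA synthetases did not move as one. Wars, for tryptophan, had 472, 491 and 471 CPM, against 90.4 to 103 CPM (median 98.3), the largest difference of the 20 at 2.29 ± 0.03 (adjusted p = 2.05e-21). Yars, for tyrosine, followed with 1.47 ± 0.02. Qars, for glutamine, was lower, with 54, 49.9 and 45 CPM, against 115 to 138 CPM (median 125), a difference of -1.34 ± 0.04 (adjusted p = 9.7e-16). Hars, for histidine, was lower (-0.39 ± 0.03), and Kars did not pass at -0.06 ± 0.03.

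The endoplasmic reticulum list divided. Of 30 genes tested 17 were called higher and 8 lower, with a median of 0.35, against 30.1% and 32.5% of all genes tested. Hspa5, the BiP chaperone, had 2326, 2487 and 2411 CPM, against 731 to 813 CPM (median 782), a 3.09-fold level (1.63 ± 0.02, adjusted p = 4.3e-22). Sensors and their direct products were also higher: Ern1, the IRE1 gene, by 1.80 ± 0.03, Atf6 by 1.45 ± 0.03, Xbp1 by 1.36 ± 0.04, and Herpud1, a degradation factor with ATF4 and ATF6 input, by 2.17 ± 0.03. Dnajb9, a target of spliced XBP1, had 33, 31.1 and 32.5 CPM, against 7.67 to 10.6 CPM (median 9.53).

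Other members of the list did not pass or were lower. Pdia6 had 215, 224 and 216 CPM, against 202 to 241 CPM (median 214), and did not pass (adjusted p = 0.892). Calr, the calreticulin gene, had 1032, 1024 and 1029 CPM, against 1032 to 1283 CPM (median 1143), a difference of -0.16 ± 0.02 (adjusted p = 1.81e-06). Pdia4 and Pdia3, disulfide isomerases, were lower (-0.34 ± 0.02 and -0.26 ± 0.02), as were Os9, a lectin of degradation (-0.49 ± 0.04), and Syvn1, the ubiquitin ligase HRD1 (-0.27 ± 0.05). The chaperones Hsp90b1 (GRP94), Canx and Dnajc3 were higher by less than Hspa5, at 0.40 ± 0.02, 0.40 ± 0.03 and 0.68 ± 0.03. Promoters with the ERSE thus belonged to genes that were higher, such as Hspa5, and to genes that were lower, such as Calr and Syvn1. Calr did not pass against ADAM9i alone (-0.037).

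In the list of heat shock genes and cytosolic chaperones 11 of 18 tested were called lower and 5 higher. Hspa8, the constitutive HSC70, had 1561, 1711 and 1613 CPM, against 2769 to 4038 CPM (median 3043) (-0.98 ± 0.02, adjusted p = 1.12e-17), and Hsp90ab1 had 1755, 1779 and 1757 CPM, against 3626 to 4112 CPM (median 3704) (-1.10 ± 0.02, adjusted p = 4.96e-20). The small heat shock proteins Cryab (-2.26 ± 0.05) and Hspb1 (-1.04 ± 0.06) were also lower. Hspa1a and Hspa1b were lower (-1.72 ± 0.12 and -1.87 ± 0.08), but these are near-identical copies between which reads can be split. The mitochondrial pair Hspd1 and Hspe1 went the other way, by 0.74 ± 0.02 and 0.68 ± 0.03.

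The sterol genes were lower nearly as a block. Of 26 genes of cholesterol synthesis and uptake 25 were called lower and 1 higher, the median difference was -1.97, and in the same 25 the WT vehicle libraries lay below all 21 other libraries of the series. Among all genes tested 32.5% were called lower, and in 17.8% the WT vehicle libraries lay below all 21. The summed level was 1602 to 1612 CPM in WT vehicle, against 5699 to 6233 CPM. Hmgcs1 had 54.6, 55.1 and 54.6 CPM, against 288 to 355 CPM (median 327) (-2.57 ± 0.05, adjusted p = 2.72e-18). The libraries of WT vehicle did not overlap those of the other groups.

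Among the genes furthest down were Acat2, which condenses acetyl-CoA, at -3.16 ± 0.04, Nsdhl, a sterol demethylation enzyme, at -3.12 ± 0.05, and Fdps, farnesyl diphosphate synthase, at -3.04 ± 0.03. Nsdhl had 23.4, 23 and 19.9 CPM, against 179 to 205 CPM (median 196), an 8.67-fold lower level (adjusted p = 8.58e-21). Mvk, Mvd and Idi1, which lead from mevalonate to isoprenoids, were at -2.95 ± 0.05, -2.82 ± 0.06 and -2.76 ± 0.07. The regulator Srebf2 itself was lower by less, at -1.11 ± 0.02, and Insig1, which holds SREBPs in the endoplasmic reticulum and is an SREBP target, was at -1.78 ± 0.03. The exception was Npc1l1, a sterol importer best known from intestine, with 1.79, 2.44 and 2.29 CPM, against 0.154 to 0.476 CPM (median 0.285) (2.97 ± 0.27, adjusted p = 8.66e-09).

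Fatty acid genes went the same way with smaller differences, 11 of 16 tested lower and 2 higher (median -0.76). Scd2, a stearoyl-CoA desaturase, had 499, 477 and 519.9 CPM, against 2000 to 2261 CPM (median 2138) (-2.09 ± 0.03, adjusted p = 3.67e-21). Acss2, Srebf1 and Elovl6 were at -1.62 ± 0.08, -1.49 ± 0.03 and -1.47 ± 0.04, and Fasn, fatty acid synthase, at -0.85 ± 0.03. Of 9 tested genes of sterol efflux and LXR, 2 were higher and 5 lower. Apoe (1.78 ± 0.15) and Abcg4 (1.48 ± 0.20) were the higher ones, and Abca1, the main cholesterol exporter to HDL, was at -0.34 ± 0.10.

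**Figure D2:**
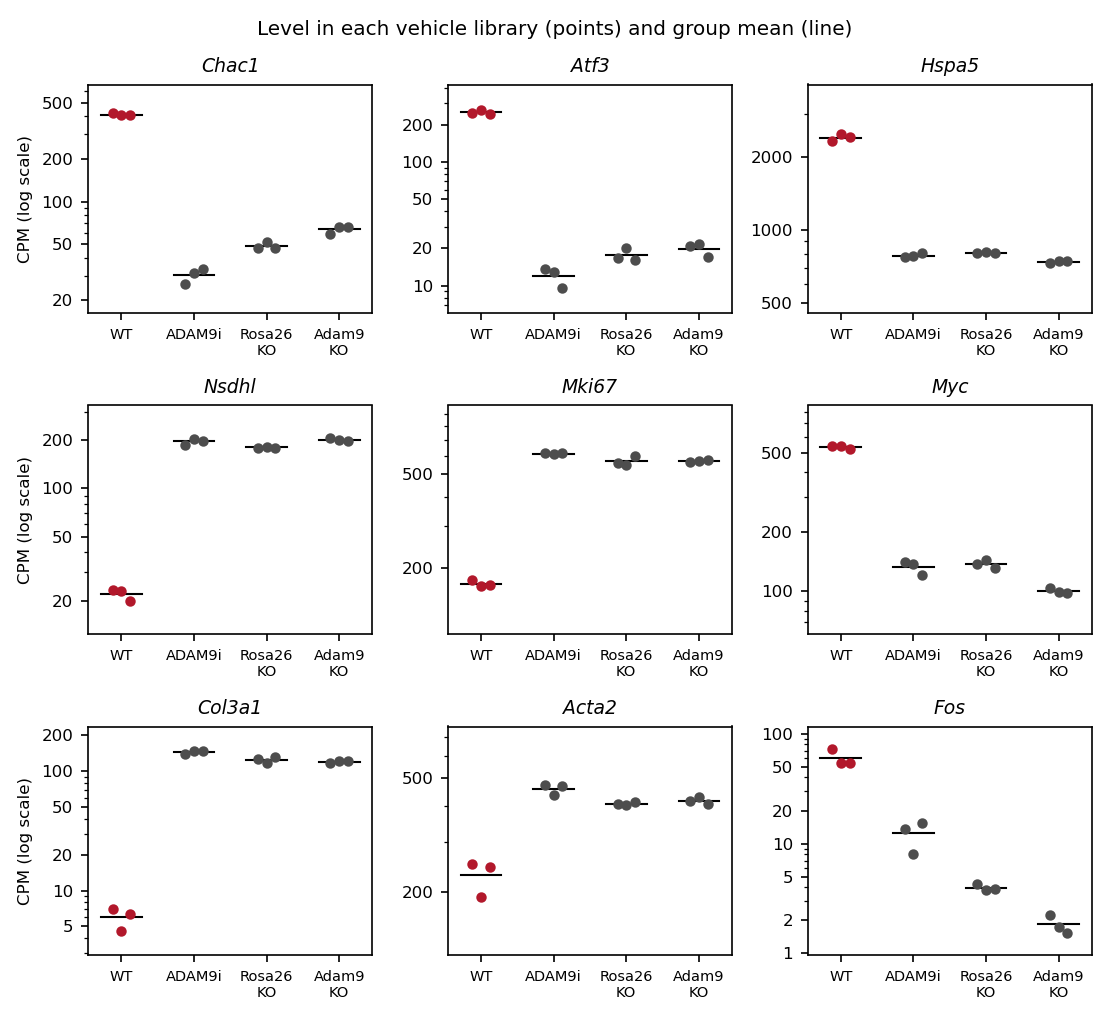
Level of 9 genes in each of the 12 vehicle libraries (points, CPM on a log axis, a different range in each panel) with group means (lines), WT vehicle in red at the left of each panel. Chac1, Atf3, Hspa5, Myc and Fos lie highest in WT vehicle, and Nsdhl, Mki67, Col3a1 and Acta2 lie lowest there, with no overlap with any other group.

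Genes of mitosis and of DNA replication were counted apart. Of 38 mitotic genes 35 were called lower and 2 higher (median -0.57), with a summed level of 4213 to 4347 CPM, against 6374 to 7462 CPM. Of 42 genes of DNA replication and S phase 27 were lower and 11 higher, with a median of -0.18. Among all genes tested 32.5% were called lower and 30.1% higher. Mki67 had 177, 167 and 169 CPM, against 548 to 614 CPM (median 578) (-1.77 ± 0.03, adjusted p = 3.14e-20). Ccnb2 had 26.3, 24.2 and 24.8 CPM, against 87 to 97.9 CPM (median 91.7) (-1.87 ± 0.04, adjusted p = 4.53e-19). Aurkb, the kinase of the chromosomal passenger complex, was at -1.67 ± 0.05, Plk1, another mitotic kinase, at -1.23 ± 0.06, and Kif23 of the central spindle at -1.51 ± 0.04.

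The mitotic genes were not lower to one measure. Ccnb1, the partner of Cdk1, was at -0.32 ± 0.03, a fraction of the difference of its relative Ccnb2, and Cdk1 at -0.54 ± 0.04. Foxm1, which drives many of these genes, was at -0.35 ± 0.03. Mad2l1 did not pass (0.06 ± 0.04), and Ect2 and Mybl2 were higher by 0.19 ± 0.03 and 0.12 ± 0.04, with libraries that overlapped those of the other groups.

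In the replication list, Tk1, thymidine kinase, stood alone with 24.8, 24.7 and 19.7 CPM, against 91.7 to 115 CPM (median 106) (-2.16 ± 0.06, adjusted p = 2.98e-17), while no other member was lower by 1 log2 unit. Rfc5, of the clamp loader, and the Okazaki fragment enzymes Lig1 and Fen1 came next, with Rfc5 at -0.94 ± 0.03, Lig1 at -0.93 ± 0.02 and Fen1 at -0.88 ± 0.05. Dnmt1, which copies DNA methylation, was at -0.78 ± 0.02. The MCM helicase subunits, which act as one ring, did not share a direction: Mcm2 was higher, with 683, 697 and 673 CPM, against 448 to 479 CPM (median 467) (0.56 ± 0.02), Mcm5 was lower, with 263, 271 and 260.4 CPM, against 379 to 436 CPM (median 406) (-0.61 ± 0.02), and Mcm7 did not pass (-0.05 ± 0.02). Licensing factors Cdt1 (0.44 ± 0.03) and Orc6 (0.38 ± 0.04) were higher. Pcna, the sliding clamp, was lower by a small measure (-0.10 ± 0.02), with overlapping libraries.

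**Figure D3:**
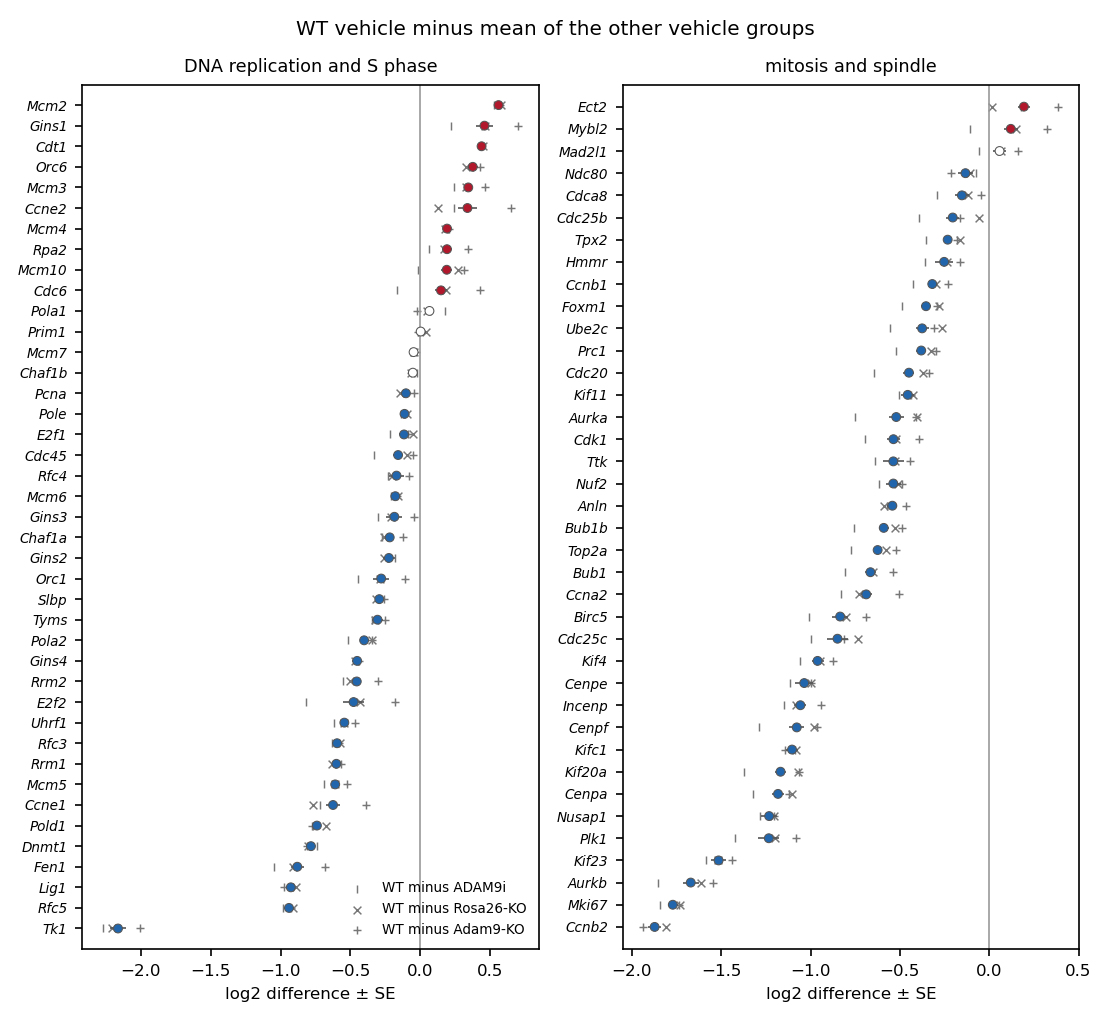
Log2 difference of genes of the DNA replication list (left) and the mitosis list (right), WT vehicle minus the mean of the other vehicle groups, with bars of 1 standard error. Red points were called higher, blue lower and white not called, and grey marks give each other group alone. The mitotic genes lie almost all left of 0, while the replication genes spread on both sides with Tk1 apart at -2.16.

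The list of CDK inhibitors, D cyclins and pocket proteins divided. Of its 19 genes 8 were higher and 11 lower, against 30.1% higher and 32.5% lower among all genes tested. Among genes with protein-coding as the first listed type the shares were 36.0% and 36.9%, closer to these counts. As the list holds D cyclins beside inhibitors, this is not a count of inhibitors alone. Cdkn2c, the p18 inhibitor of CDK4 and CDK6, had 31.6, 32.4 and 32.6 CPM, against 139 to 162 CPM (median 155) (-2.24 ± 0.03, adjusted p = 3.76e-21). Cdkn2b and Cdkn2a, the p15 and p16/p19 genes, were at -1.77 ± 0.06 and -1.18 ± 0.04. Cdkn1a, the p21 gene, was higher by 0.49 ± 0.10, with 21.4, 18.9 and 20.1 CPM, against 11.3 to 18.1 CPM (median 14.1) (adjusted p = 0.00028). Btg1, an antiproliferative cofactor, and Rb1, the retinoblastoma gene, were higher by 0.98 ± 0.03 and 0.72 ± 0.05. Ccnd1, the main D cyclin of mitogen signalling, was slightly higher with overlapping libraries (0.09 ± 0.03). The RNA of these libraries does not show how fast the cells divided.

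Of 25 p53 targets 16 were called higher and 6 lower (median 0.62), against 30.1% higher and 32.5% lower among all genes tested. Trp53 RNA was 228, 239 and 232 CPM, against 215 to 248 CPM (median 233), and did not pass (adjusted p = 0.451). Plk2, a stress kinase, had 293, 301 and 279 CPM, against 86.8 to 126 CPM (median 103) (1.52 ± 0.08, adjusted p = 6.55e-08), Rrm2b, the p53-induced ribonucleotide reductase subunit, was higher by 1.57 ± 0.06, and Mdm2, which degrades p53, by 0.62 ± 0.04. Other targets of p53 were lower: Fas, a death receptor, with 2.82, 3.71 and 3.03 CPM, against 15.2 to 25.6 CPM (median 19.7) (-2.64 ± 0.11, adjusted p = 3.01e-14), Sesn1 (-1.78 ± 0.07) and Ccng1 (-1.18 ± 0.05). Gdf15, Pmaip1 and Sesn2, which are counted as p53 targets, also answer to ATF4. Of 24 apoptosis regulators 5 were higher and 14 lower, against the same shares of 30.1% and 32.5%. Hrk, a BH3-only killer, had 9.01, 10.3 and 8.76 CPM, against 0.0782 to 0.555 CPM (median 0.323) (4.96 ± 0.22, adjusted p = 1.2e-13), Bid and Bax were higher by 0.88 ± 0.04 and 0.74 ± 0.04, while the killers Bmf (-1.69 ± 0.10) and Bok (-1.02 ± 0.05) and the caspase Casp8 (-0.71 ± 0.06) were lower.

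Genes of ribosome production were higher. Of 30 genes of ribosome biogenesis and MYC targets 28 were called higher, with a median of 0.99 and a summed level of 10720 to 10760 CPM, against 4600 to 6583 CPM. Myc, the transcription factor, had 539, 538 and 522 CPM, against 97.7 to 144 CPM (median 132) (2.12 ± 0.03, adjusted p = 3.28e-20). Nop58, a core protein of box C/D snoRNPs, had 520.0, 562 and 560.5 CPM, against 149 to 182 CPM (median 171) (1.70 ± 0.03, adjusted p = 1.76e-20), and its partners Nop56 and Fbl were higher by 1.58 ± 0.03 and 0.82 ± 0.03. Gnl3 (nucleostemin), Rrp12 and Srm were at 1.46 ± 0.04, 1.34 ± 0.04 and 1.33 ± 0.04. Cad, which starts pyrimidine synthesis, and Bop1, of the large subunit, did not pass (0.06 ± 0.03 and -0.03 ± 0.04). The ribosomal proteins themselves showed no such direction: of 40 tested 12 were higher, 17 lower and 11 not called, with a median of 0.02. In the 3 other groups the biogenesis genes also differed among themselves, since all 30 were called there.

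Hosts of snoRNAs and transcripts that nonsense-mediated decay removes were higher in 16 of 20 genes tested and lower in 2 (median 0.76). Gadd45a, a growth arrest gene whose RNA is a known decay target, had 256, 257 and 260.3 CPM, against 16.2 to 31.8 CPM (median 24.7) (3.44 ± 0.06, adjusted p = 5.94e-16). Zfas1 and Snhg1, non-coding hosts, were at 2.42 ± 0.04 and 2.15 ± 0.04, and Gas5 at 1.08 ± 0.03. Snhg3 was lower (-1.20 ± 0.17) at 1.28 to 1.39 CPM.

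Autophagy and lysosome genes were higher in 20 of 29 tested and lower in 5 (median 0.54). Sqstm1, the p62 cargo receptor, had 1809, 1831 and 1703 CPM, against 399.6 to 567 CPM (median 457) (1.94 ± 0.03, adjusted p = 2.2e-17). Rragd, a GTPase that places mTORC1 on lysosomes, was higher by 1.72 ± 0.07, Atp6v1h of the proton pump by 1.40 ± 0.03 and Gabarapl1 by 1.10 ± 0.03. Tfeb, a main regulator of lysosome genes, was lower (-0.97 ± 0.07), with 12.4, 14.7 and 12.2 CPM, against 24.1 to 26.8 CPM (median 25.9). NRF2 targets were divided, 9 higher and 16 lower of 25, against 30.1% higher and 32.5% lower among all genes tested. Hmox1, heme oxygenase, had 307, 296 and 288 CPM, against 85.7 to 159.5 CPM (median 118) (1.34 ± 0.03, adjusted p = 1.71e-17), whereas Nqo1, a quinone reductase often read as the marker of NRF2, had 2.58, 3.81 and 3.01 CPM, against 13.4 to 21 CPM (median 16.7) (-2.42 ± 0.12, adjusted p = 4.83e-13). Txnrd1 was higher by 0.65 ± 0.02, and Srxn1 (-1.15 ± 0.05) and Gclm (-0.50 ± 0.04) were lower.

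**Figure D4:**
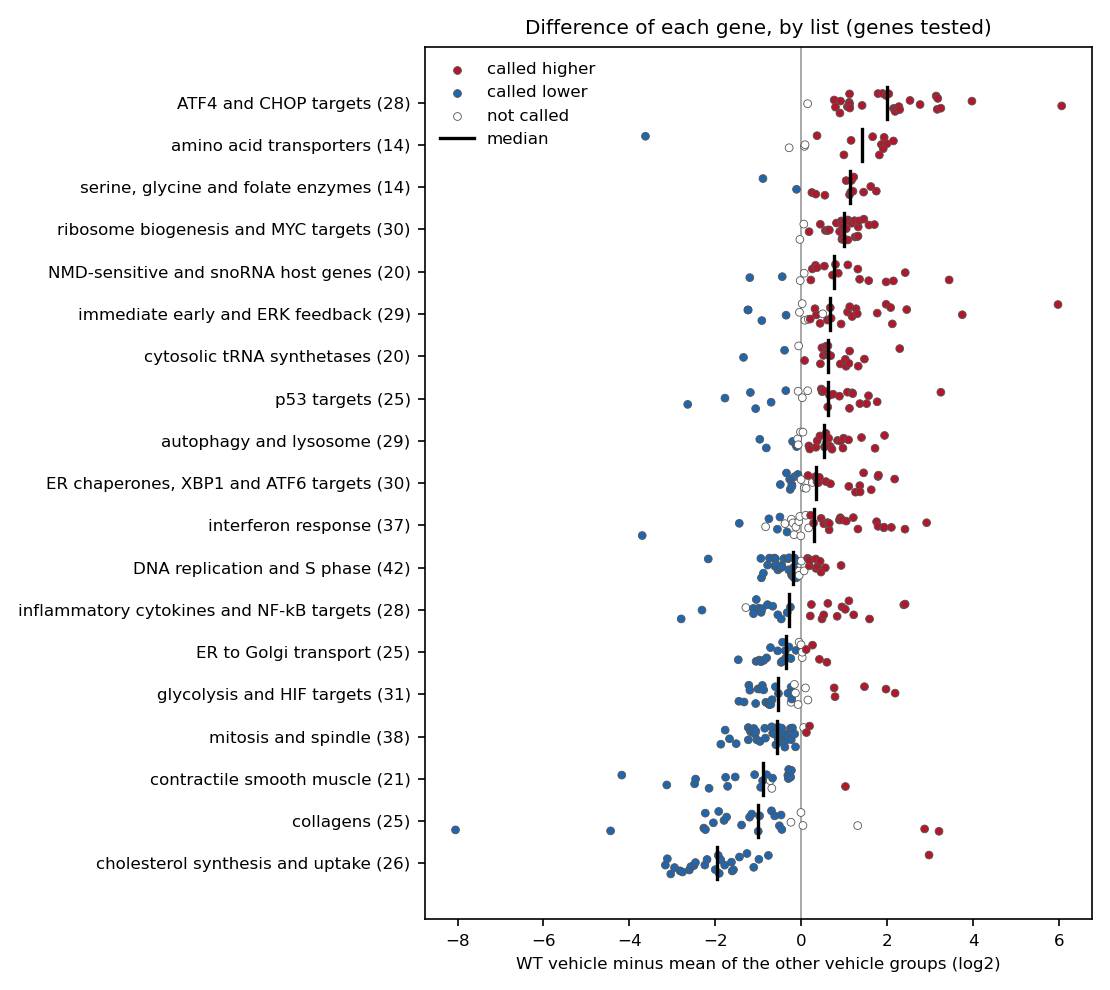
Log2 difference of every tested gene of 19 lists, WT vehicle minus the mean of the other vehicle groups (numbers tested in brackets). Red points were called higher, blue lower, white not called, and black bars are medians, from 2.0 for ATF4 and CHOP targets at the top to -1.97 for cholesterol synthesis at the bottom.

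Collagens and most other matrix genes were lower. Of 25 collagens tested 19 were called lower and 2 higher (median -1.0), and the summed collagen level was 3443 to 3741 CPM, against 10550 to 14690 CPM. Col3a1, a fibrillar collagen of the artery wall, had 6.96, 4.61 and 6.39 CPM, against 117 to 148 CPM (median 126), a 21.7-fold lower level (-4.44 ± 0.10, adjusted p = 1.86e-13). The chains of type I collagen went down together, with Col1a1 at 1195, 1057 and 1185 CPM, against 3942 to 5370 CPM (median 5036), and Col1a2 at 1180, 1068 and 1198 CPM, against 4250 to 6296 CPM (median 5765). Their differences were -2.04 ± 0.04 and -2.23 ± 0.04 (adjusted p = 2.32e-14 and 7.84e-16). Col6a3 had 0 counts in all 3 WT vehicle libraries and at most 0.841 CPM elsewhere, too little for a fold. The basement membrane pair Col4a3 and Col4a4 was higher, with Col4a4 at 21.3, 21.1 and 20.6 CPM, against 1.69 to 3.51 CPM (median 3.01) (2.87 ± 0.13, adjusted p = 1.3e-13), while Col4a1 was lower (-0.47 ± 0.04).

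Of 25 genes of collagen processing 19 were lower and 4 higher. P4ha3, a prolyl hydroxylase subunit, was at -3.33 ± 0.12. Lox, the crosslinking oxidase, was at -2.19 ± 0.04, with 281, 265 and 292 CPM, against 1077 to 1430 CPM (median 1314), while its relative Loxl4 was higher, with 381, 354 and 375 CPM, against 78.5 to 103 CPM (median 94.8) (2.02 ± 0.03, adjusted p = 4.9e-21). Of 31 genes of elastic fibres and other matrix 24 were lower and 5 higher, while their summed level, to which Fn1 gave the most, overlapped at 10990 to 11310 CPM, against 10520 to 12490 CPM. Fmod, fibromodulin, had 8.79, 6.22 and 4.66 CPM, against 79.6 to 118 CPM (median 111) (-3.97 ± 0.16, adjusted p = 7.66e-09), and Prelp, Postn and Thbs1 were at -3.16 ± 0.09, -3.07 ± 0.11 and -2.66 ± 0.08. Fn1, fibronectin, was higher with 7051, 6962 and 6893 CPM, against 4570 to 5532 CPM (median 5323) (0.43 ± 0.02, adjusted p = 3.02e-14), as were the laminin chains Lamb1 (0.77 ± 0.03) and Lamc1 (0.39 ± 0.02). Of 24 matrix proteases and inhibitors 4 were higher and 15 lower (30.1% and 32.5% of all genes tested). Their sums overlapped, at 2643 to 2709 CPM, against 2401 to 2769 CPM. Mmp13, a collagenase, and Timp3, an inhibitor of metalloproteases and ADAMs, were higher by 2.30 ± 0.08 and 1.97 ± 0.06, and the stromelysins Mmp10 and Mmp3 were at -2.26 ± 0.14 and -1.81 ± 0.07.

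Contractile genes were lower in 18 of 21 tested and higher in 1 (median -0.90). As to cell identity, Acta2, smooth muscle actin, had 251, 193 and 244 CPM in WT vehicle, against 404 to 474 CPM (median 415) (-0.90 ± 0.07, adjusted p = 1.95e-06). Tagln was 7.81, 7.56 and 8.58 CPM, against 8.11 to 12.4 CPM (median 9.96), while Myh11, Cnn1 and Actg2, markers of mature smooth muscle, were at most 0.376 CPM in WT vehicle and at most 1.66 CPM elsewhere. By RNA, smooth muscle identity in each vehicle group thus rests on Acta2 and a few general contractile genes. Myl9, a myosin light chain, was at -3.13 ± 0.17 and Mylk, its kinase, at -2.15 ± 0.12. Myocd, the coactivator of this programme, was higher, with 2.36, 1.47 and 2.82 CPM, against 0.547 to 1.68 CPM (median 0.991) (1.03 ± 0.24, adjusted p = 0.000835), and its libraries overlapped.

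Markers of other cell types were counted beside these results. Of 14 fibroblast markers 12 were tested, 6 lower and 1 higher, and their summed level was 94.8 to 102.5 CPM, against 394.2 to 471.8 CPM. Pdgfra made up much of it, with 49.5, 43.5 and 49.1 CPM, against 233 to 294 CPM (median 257) (-2.46 ± 0.05, adjusted p = 2.91e-19). Of 10 endothelial markers 6 were tested and 3 were higher, with a sum of 24.1 to 27.0 CPM, against 2.78 to 6.30 CPM. That sum was mostly Vwf, with 18.1, 20.8 and 19.5 CPM, against 0.89 to 3.49 CPM (median 2.11) (3.19 ± 0.15, adjusted p = 2.96e-13), and Cdh5 had 0 counts in WT vehicle. Of 10 macrophage markers 4 were tested and 2 were lower, with a sum of 8.73 to 11 CPM, against 16.3 to 25.9 CPM, and Ptprc had 0 counts in WT vehicle. Epithelial markers (3 tested of 10) summed to at most 2.26 CPM in WT vehicle and 8.64 CPM elsewhere, with Epcam at 0 counts in all 12 libraries. Markers of skeletal and cardiac muscle (4 tested of 10) summed to 8.01 to 8.5 CPM, against 12.2 to 20.8 CPM. The part of these genes in the differences described was not tested.

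Receptors and ligands of growth factors were lower in 16 and higher in 9 of 29 tested, against 32.5% lower and 30.1% higher among all genes tested. Their summed level ran the other way, 2360 to 2453 CPM, against 1951 to 2312 CPM. Igfbp5, which binds insulin-like growth factors, had 2.1, 1.87 and 2.52 CPM, against 46.5 to 90.05 CPM (median 69.8) (-4.95 ± 0.07, adjusted p = 8.58e-21). Of the PDGF receptors, which carry the main mitogenic signal in smooth muscle, Pdgfra was at -2.46 ± 0.05 and Pdgfrb at -0.66 ± 0.03. Egfr was at -0.64 ± 0.05, and Igf1 at -2.74 ± 0.20. Of the ligands, Vegfa, which is induced by hypoxia and by ATF4, had 615, 609.8 and 614 CPM, against 143 to 176 CPM (median 156) (1.97 ± 0.05, adjusted p = 2.24e-12), and Hbegf, a membrane-bound EGF receptor ligand, was higher by 1.29 ± 0.09.

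Immediate early genes were higher in 20 of 29 tested and lower in 4 (median 0.68). Fosb had 175, 123 and 124 CPM, against 0.904 to 8.56 CPM (median 1.22) (5.98 ± 0.21, adjusted p = 5.81e-09), and Fos had 72.8, 53.9 and 54.3 CPM, against 1.55 to 15.5 CPM (median 3.82) (3.75 ± 0.16, adjusted p = 2.97e-09). Both are AP-1 subunits that rise within minutes of a stimulus, and among the other vehicle groups Fos was highest in ADAM9i, at 13.5, 8.09 and 15.5 CPM. Klf4, a factor of smooth muscle state changes, had 389, 359 and 383 CPM, against 51.5 to 86.4 CPM (median 75.8) (2.46 ± 0.03, adjusted p = 2.84e-21), and the AP-1 subunit Fosl1 was higher by 2.08 ± 0.19. Members differed among themselves: Egr1 was higher by only 0.32 ± 0.05, and Fosl2, Dusp5 and Egr3 were lower, at -0.92 ± 0.04, -1.24 ± 0.11 and -1.24 ± 0.21. Dusp6, a feedback gene of ERK signalling, did not pass (0.17 ± 0.09), being lower than in ADAM9i (-0.21) and higher than in Adam9-KO (0.82).

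Interferon genes were higher in 20 of 37 tested and lower in 6 (median 0.29), but against ADAM9i alone 16 were higher and 11 lower. In none of the 37 did the WT vehicle libraries all lie above the 21 other libraries of the series, against 18.9% of all genes tested. They lay below all 21 in 4 of the 37, against 17.8% of all genes tested. The largest difference was in Rsad2, an antiviral enzyme, with 15.1, 10.8 and 12.9 CPM, against 0.696 to 4.42 CPM (median 1.6) (2.92 ± 0.18, adjusted p = 1.84e-11). H2-D1 and H2-K1, class I MHC genes, were higher by 1.32 ± 0.04 and 1.05 ± 0.04. The regulators Irf7 (-0.19 ± 0.12) and Irf1 (-0.06 ± 0.05) did not pass, and Gbp2 (-1.44 ± 0.09) and Ifit2 (-0.75 ± 0.04) were lower. Of 28 cytokines and NF-kB targets 13 were higher and 14 lower, against 30.1% and 32.5% of all genes tested. Cxcl10 and Csf1 were higher by 2.42 ± 0.07 and 1.03 ± 0.03, and Cxcl12, a chemokine of stromal cells, was lower, with 167, 155 and 162 CPM, against 979 to 1278 CPM (median 1103) (-2.79 ± 0.04, adjusted p = 1.16e-19). The WT minus ADAM9i, Rosa26-KO and Adam9-KO medians of the cytokine list were -0.62, -0.23 and 0.10, so its direction depended on the group chosen for comparison.

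Glycolysis and HIF targets depended on that choice too. In the mean of the 3 groups 20 of 31 tested were lower and 5 higher, against 32.5% lower and 30.1% higher among all genes tested. Relative to each group alone, 23 were lower and 4 higher against ADAM9i, 12 and 6 against Rosa26-KO, and 13 and 7 against Adam9-KO. Among all genes tested the shares called lower were 30.7%, 29.4% and 31.4% in that order, and the shares called higher 27.2%, 27.2% and 28.4%. Ldha, lactate dehydrogenase, had 467, 472 and 465 CPM in WT vehicle, against 1397, 1411 and 1136 CPM in ADAM9i, 795, 778 and 734 CPM in Rosa26-KO and 554, 565 and 568 CPM in Adam9-KO. Bnip3, a hypoxia-induced mitophagy receptor, had 26.5, 27 and 25.2 CPM, against 124, 143 and 72.5 CPM in ADAM9i, 43, 35.9 and 38.6 CPM in Rosa26-KO and 28.4, 34.8 and 28.3 CPM in Adam9-KO. In both genes the ADAM9i libraries were the highest of all, and for Bnip3 the difference passed neither against Rosa26-KO alone (-0.58) nor against Adam9-KO alone (-0.22). Hk2, hexokinase, was higher in WT vehicle by 1.47 ± 0.08, and Ndrg1, which answers to both hypoxia and ATF4, by 2.19 ± 0.17. Pfkfb4 and Pfkm were lower in WT vehicle (-1.45 ± 0.10 and -1.33 ± 0.04).

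**Figure D5:**
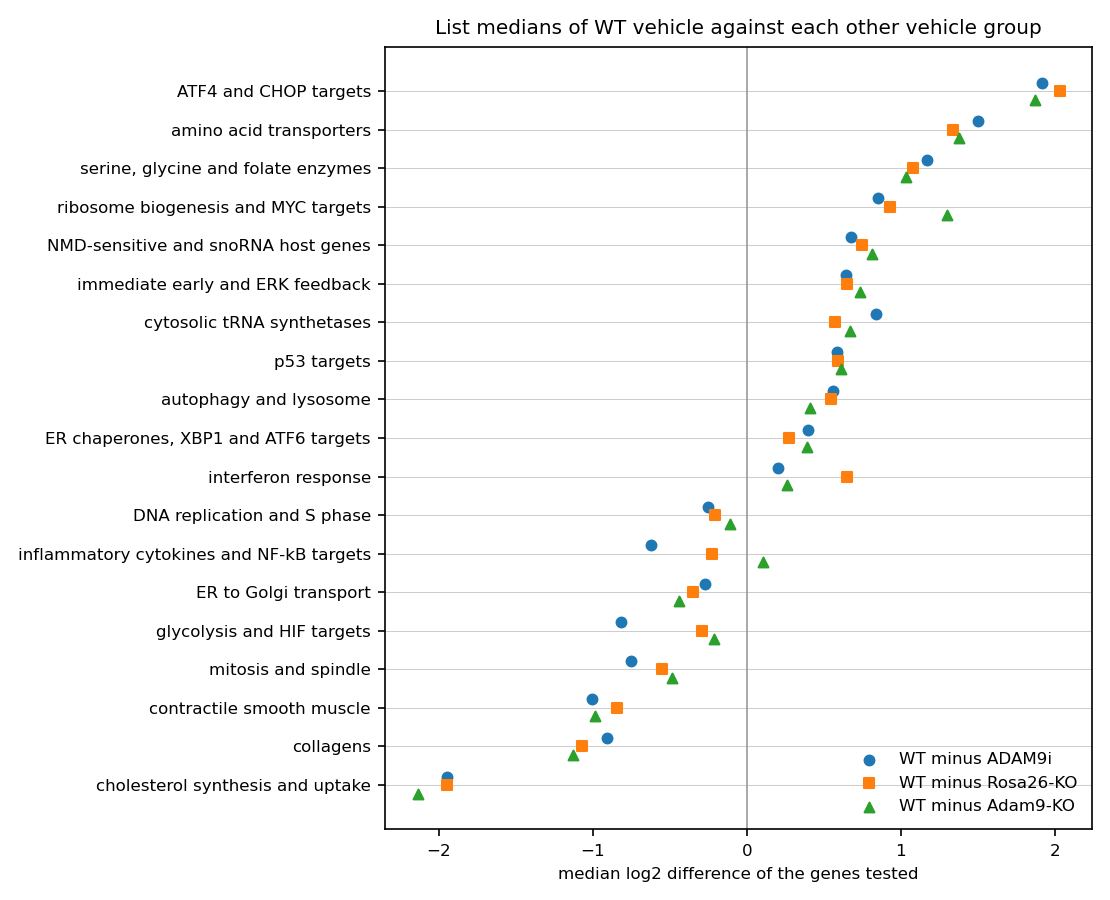
Median log2 difference of the tested genes of 19 lists for WT vehicle minus each of the other 3 vehicle groups alone, which share the WT vehicle libraries. The medians of most lists lie close together, as for cholesterol synthesis (-1.95, -1.95 and -2.14), and spread for the cytokine and glycolysis lists.

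Of 13 mitochondrially encoded genes 12 were lower, with a median of -0.23, and of 34 nuclear subunits 23 were lower and 5 higher, with a median of -0.17. Over all genes the median difference was -0.10 in the 3706 shortest genes and 0.08 in the 3706 longest, and the part of length in these small medians was not tested. Mitochondrially encoded genes took 3.21% to 3.22% of counts in WT vehicle, against 3.68% to 4.05% in the others (exact permutation test of 3 against 9 libraries, two-sided p = 0.00455, the smallest that 220 splits can give). The 100 most abundant genes took 15.8% to 15.9% of counts, against 17.5% to 17.9% (the same exact p), and 21360 to 21880 genes had a count, against 21900 to 22530 (exact p = 0.0136). The number of genes with a count was not adjusted for depth, and its lowest value was in the WT vehicle library with the fewest counts. These tests treat single libraries as exchangeable, although the 9 others come from 3 groups, so their p-values do not measure the spread between groups. Whether these library properties have a part in the differences was not tested. Genes of transport from the endoplasmic reticulum to the Golgi were lower in 17 of 25 tested and higher in 4 (median -0.37).

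Over all genes, several of the largest differences lay outside the programmes above. Ppef1, a calcium-binding phosphatase, had 60.05, 65.8 and 62 CPM, against 1.81 to 4.34 CPM (median 2.28) (4.57 ± 0.07, adjusted p = 1.3e-20). Car6, a secreted carbonic anhydrase, had 20.7, 21.6 and 17.1 CPM, against 0.24 to 0.938 CPM (median 0.388). Vmn2r3, a vomeronasal receptor gene, had 6.07, 7 and 5.43 CPM, against 0 to 0.0793 CPM (median 0). In each of these genes the WT vehicle libraries lay far above all others. Akr1b7, an aldose reductase, was higher by 5.02 ± 0.26. At the other end, Il1rl1, the IL-33 receptor, had 0.115, 0 and 0 CPM, against 0.695 to 21.2 CPM (median 1.2), and Htra3, a serine protease, had 0.804, 0.871 and 1.07 CPM, against 19.7 to 29.1 CPM (median 23) (-4.68 ± 0.11, adjusted p = 3.54e-18). Adam12, a relative of Adam9, had 0.689, 0.71 and 0.696 CPM, against 13.5 to 20.9 CPM (median 16.4) (-4.56 ± 0.13, adjusted p = 1.21e-16). Islr, Gas7 and Cdh26 were at -4.50 ± 0.29, -4.23 ± 0.15 and -4.98 ± 0.20. Sprr2a1 and Sprr2a2 were both lower (-4.64 ± 0.17 and -4.58 ± 0.17), but they are near-identical copies between which reads can be split.

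The WT cells given rhCTHRC1 place the WT vehicle libraries in the series. On a scale fitted to all 24 libraries, Chac1 had 421 ± 7.59 CPM in WT vehicle, 168 ± 2.69 CPM in WT rhCTHRC1 and 9.87 to 67.9 CPM over the remaining 18 libraries (mean ± SD, n = 3 each, and range). Hspa5 had 2464 ± 82.4, 383 ± 9.84 and 430.3 to 1028 CPM in that order, so WT rhCTHRC1 lay below the range of those 18. Nsdhl had 22.6 ± 1.99, 209 ± 5.83 and 181 to 272 CPM, and Mki67 had 175 ± 5.56, 534 ± 18.6 and 453 to 626 CPM. For Nsdhl and Mki67 the mean of WT rhCTHRC1 lay within the range of the 18, while Chac1 lay between that range and WT vehicle. Other genes of the ATF4 and CHOP list did not follow Chac1. Atf3 had 259 ± 11.1, 24.5 ± 4.78 and 3.95 to 22.1 CPM, with WT rhCTHRC1 just above the range. Fgf21 had 48.85 ± 2.92, 1.3 ± 0.39 and 0.0478 to 1.49 CPM, with WT rhCTHRC1 within the range. Col3a1 (6.13 ± 1.3, 138 ± 5.52 and 117 to 228 CPM) and Myc (545 ± 10.1, 93.3 ± 8.78 and 46.7 to 154 CPM) lay within the range too. Immediate early genes did not: Fos had 61.7 ± 11.1 CPM in WT vehicle, 567 ± 69.7 CPM in WT rhCTHRC1 and 0.828 to 34.9 CPM elsewhere, and Egr1 had 142 ± 6.16, 1171 ± 57.2 and 25.5 to 139.8 CPM. Acta2 had 235 ± 32.5 CPM in WT vehicle, 48.6 ± 5.02 CPM in WT rhCTHRC1 and 39.1 to 482 CPM elsewhere, so both WT groups lay within the range of the other 18 libraries. These values are a description with no test.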

How the data were processed

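RNA-seq of 24 libraries was deposited as 1 table with raw counts and FPKM per gene and library. The raw counts were made by the authors on GRCm38, and HISAT2, StringTie and DESeq2 are named, without versions, per the submitters' processing notes. The deposited FPKM values are scaled for gene length and library total, per the file headers, and were used only for an alternative, as log2(FPKM + 1). The labels do not say whether counting used strand.

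The 12 vehicle libraries were fitted together in edgeR 4.0.16 (R 4.3.3; filterByExpr, TMM scaling, robust quasi-likelihood F test, 1 mean per group), with the contrast WT vehicle minus the mean of the 3 other groups and Benjamini-Hochberg adjustment. Genes with adjusted p below 0.05 were called. Alternatives were DESeq2 1.42.0, limma 3.58.1 on FPKM, other scalings, no filter, all 24 libraries, the replicate number as a block, each other group alone and each library left out. Replicates of a group differed by more than counting noise (median per-gene chi-square 2.89 to 4.04, against 0.455 for counting alone). On counts simulated for this comparison, 50 of 50 genes with 1.5-, 2- or 4-fold changes were recovered at each size, as were 19 of 50 at 1.25-fold. Of 17611 unchanged genes 6 were called. In the simulation all genes had the same spread, few genes were changed, equally up and down, and the 3 other groups were alike. The data differ on each of these points, so the simulation checks the fit and does not give its error rate here.

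The genes of 49 lists may be named: first called members with the largest differences, at least 5 CPM in a group and no overlap, then members that went against their list or did not pass. To these were added the 15 largest rises and falls, Adam9 and Cthrc1. Members and lists were chosen with earlier results of these data known. Promoters are RefSeq sequences (GRCm38.p6). Figures were drawn with matplotlib 3.10.9. A few list members are counted but not reported here by name.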

Additional observations from a re-analysis of the deposited data

How the results depend on the processing

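The number of called genes was 11614 with RLE size factors (5831 higher and 5783 lower), 11638 with library size alone (5221 and 6417), 11805 with no filter, 11837 with all 24 libraries, 11698 with DESeq2 and 9921 with limma on FPKM, against 11611. With a fold of at least 2 it was 3460, 1470 of them higher and 1990 lower. Leaving out 1 library gave 10898 to 11607 calls. Same-numbered libraries did not deviate together (correlations of -0.0315 to 0.0204), so the replicate numbers were not taken to pair the samples, and a fit with the replicate number as a block gave 11599 calls. The glycolysis and HIF list had 12 lower genes against Rosa26-KO alone and 13 against Adam9-KO alone, in place of 20. TGATGNAA on the gene strand alone was in 2 promoters of ATF4 and CHOP targets, in place of 8.

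Signs of small differences changed with the group compared. Against Adam9-KO alone the difference was 0.11 for Abca1, 0.25 for Bop1, 0.12 for Irf1, 0.027 for Kars, 0.11 for Mthfd1 and 0.078 for Pdia6. Against Rosa26-KO alone it was -0.15 for Ccnd1, -0.12 for Dusp6, 0.02 for Irf1 and 0.22 for Irf7. Against ADAM9i alone it was -0.069 for Cad, -0.21 for Dusp6, -0.057 for Mad2l1, -0.11 for Mybl2, 0.019 for Pdia6 and -0.039 for Trp53. Trp53, which did not pass, was at -0.02 with library size alone and -0.021 with limma. Pdia6 was at 0.024 with RLE or DESeq2, 0.001 with no filter and 0.003 with 24 libraries, and between -0.011 and 0.005 with 1 library left out. Of 231 named genes 10 kept their sign but lost their call in at least 1 setting. Calr was not called against ADAM9i alone (-0.037), nor Myocd against Adam9-KO alone (0.71). Tagln was not called against Rosa26-KO alone (-0.24), against Adam9-KO alone (-0.12), with 24 libraries (-0.29) or with limma (-0.04).
Depth limits genes near 3 counts per library, 0.0472 to 0.0552 CPM. Why each value moved was not tested.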

Other observations

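Counts for further lists stand beside shares of 30.1% higher and 32.5% lower among all genes tested, and several are near those shares. Genes with protein-coding as their first listed type had shares of 36.0% and 36.9%. In the circadian clock 7 of 16 genes tested were higher and 5 lower. Genes of the negative limb were among the higher ones, with Ciart at 2.96 ± 0.08, Cry1 at 1.64 ± 0.06 and Nr1d2 at 1.39 ± 0.05, together with the activator Arntl (1.20 ± 0.06), while the output gene Dbp (-1.27 ± 0.10) and the repressors Per3 (-1.0) and Per2 (-0.50 ± 0.08) were lower. Genes of nucleotide and polyamine synthesis were higher in 17 of 22 and lower in 3, with a median of 0.58. Sat1, which acetylates polyamines for export, was at 1.81 ± 0.03, and Odc1, the first enzyme of polyamine synthesis, at 0.95 ± 0.03, while Prps2 was lower (-0.48 ± 0.04). The hexosamine and N-glycan genes were higher in 12 of 20 and lower in 5, with Gnpnat1 at 1.24 ± 0.11 and its neighbour in the pathway Pgm3 at -1.20 ± 0.08.

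Genes of TGF-beta and BMP signalling were lower in 15 of 23 tested and higher in 7, and YAP targets were higher in 11 of 19 and lower in 6. Tgfbi, a TGF-beta-induced matrix protein, was at -2.29 ± 0.19 and Smad6, a BMP feedback inhibitor, at -1.30 ± 0.06, while Skil was higher (1.16 ± 0.05). Of 22 DNA repair genes 7 were higher and 12 lower, of 31 proteasome subunits 13 higher and 15 lower, and of 17 FOXO and MondoA starvation genes 8 higher and 8 lower. Genes were also sorted by the first transcript type listed for each. Of those with protein-coding as that type, 36.0% were called higher and 36.9% lower, against 8.66% and 22.1% for antisense and 16% and 25.2% for lincRNA. The first type is not always the class of the gene: Col3a1 stood under retained intron and Hrk under processed transcript, so coding genes are spread over several types. Antisense and coding reads are told apart only as far as the counting used strand, which the sources used here do not state.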
